A study of Mus musculus with 17 samples.

Results

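Pou5f1, Nanog and Sox2 encode the 3 transcription factors usually called the core of the pluripotency network. They were represented by 5 of the 12488 probe sets of the Affymetrix MG-U74Av2 array, chosen as every probe set that the platform annotation gives to 1 of these genes and to no other gene. Pou5f1 had 2 probe sets (103075_at and 161159_r_at), Nanog had 2 (161072_at and 161653_f_at) and Sox2 had 1 (100009_r_at). In all, 8252 genes had a probe set of their own. The rule itself uses no measured value.

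The series followed normal mouse development before implantation on 17 arrays, from oocytes (n = 4) through the 1-cell (n = 3), 2-cell (n = 3) and 8-cell (n = 4) embryo to the blastocyst (n = 3). No genotype, strain, treatment, hour after fertilisation or oocyte maturation state was given, and in vitro transcription amplified the RNA of each sample in 2 rounds. The labels number the samples of a stage but do not say whether they came from separate animals or pools, so that the p-values reflect only how these samples scatter, and that scatter may be technical. Values are the deposited signal intensities, already scaled per array. Changes are differences of log2(signal + 10.7), given with their standard error (SE), and folds are on the same scale. Both understate the change of dim probe sets.

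Pou5f1 (also called Oct4) is a POU-domain protein that binds octamer sequences and is needed to form the inner cell mass, the group of blastocyst cells from which the fetus and embryonic stem cells arise. Sox2, an HMG-box protein, binds DNA beside Pou5f1 at paired Sox and octamer sites, among them elements near Nanog and near its own gene. Nanog, a homeodomain protein, marks and maintains the pluripotent epiblast. In the mouse blastocyst all 3 proteins are associated with the inner cell mass, while the outer trophectoderm goes on to form the placenta.

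The sequence just upstream of each gene is shown because paired Sox and octamer sites are the best known feature of this regulatory circuit. The 250 bases before the first annotated start of each gene are RefSeq sequences on build GRCm38.p6, on the plus strand, which is the strand of all 3 genes. Capitals mark the matches to 4 motifs searched on both strands: the octamer core ATGCAAA, the Sox core CATTGT, the TATA box core TATAAA and the GC box GGGCGG.
Pou5f1, chr17:35505782-35506031: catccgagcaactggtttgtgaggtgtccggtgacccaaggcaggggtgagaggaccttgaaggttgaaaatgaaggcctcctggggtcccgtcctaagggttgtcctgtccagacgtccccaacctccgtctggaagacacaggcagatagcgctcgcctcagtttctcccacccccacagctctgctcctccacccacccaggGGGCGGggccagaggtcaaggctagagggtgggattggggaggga
Nanog, chr6:122707239-122707488: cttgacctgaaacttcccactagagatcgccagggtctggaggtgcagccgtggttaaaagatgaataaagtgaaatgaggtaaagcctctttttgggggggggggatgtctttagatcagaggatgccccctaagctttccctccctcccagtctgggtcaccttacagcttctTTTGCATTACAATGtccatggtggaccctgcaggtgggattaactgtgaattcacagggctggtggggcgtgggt
Sox2, chr3:34649745-34649994: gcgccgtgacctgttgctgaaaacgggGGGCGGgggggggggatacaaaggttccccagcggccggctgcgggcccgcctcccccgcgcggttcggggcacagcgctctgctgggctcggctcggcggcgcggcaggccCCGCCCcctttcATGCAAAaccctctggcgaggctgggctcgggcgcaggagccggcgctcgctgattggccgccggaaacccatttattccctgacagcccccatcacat

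The Nanog window held a Sox core and an octamer core on the minus strand, overlapping no other motif and separated by 1 base, as TTTGCATTACAATG between 75 and 62 bases before the start. This joined arrangement, CATTGT and ATGCAAA with any 1 base between them, was found in 2 of the 32851 mouse windows searched, or 0.0061%, and both of those were overlapping windows of Nanog itself. Its letters were chosen knowing the Nanog element, so its rarity says nothing further. The Sox2 window held an octamer core between 99 and 93 bases before the start, a match that 1355 windows (4.12%) had, and GC boxes on each strand. The Pou5f1 window held a GC box between 45 and 40 bases before the start, found in 10756 windows (32.7%), and none of the other 3 letter strings. Sox cores were in 3512 windows (10.7%) and TATA box cores in 4063 (12.4%). The windows were rich in G and C at Sox2 (72.0%) and Pou5f1 (62.0%) and near the median of all windows (52.4%) at Nanog (52.0%). A match is a description of letters and not of a bound site.

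Stage labels were checked against marker genes before the members were read. The summed signal of 10 measured oocyte genes was between 374 and 432.5 in blastocysts and between 42484.1 and 46688 in oocytes, and that of 9 measured trophectoderm genes was between 8378.4 and 10161.2 in blastocysts and at most 1536.9 elsewhere. Within a stage, arrays correlated at 0.934 to 0.979 on the log2 scale over the 8067 probe sets that were tested, dim ones being left out. One library stood apart for genes of another tissue: Ovgp1, an oviduct secretory protein, had a signal of 6212.4 in 8-cell sample 2 and between 43.1 and 114.1 in the other 8-cell samples, and the 2-cell samples had 1271.8, 714.7 and 688.1. The summed signal of 12 measured oviduct and uterus genes was between 1597 and 2273.1 in 2-cell embryos, between 537.9 and 7740.4 in 8-cell embryos and between 429.3 and 940 at the other stages. No measured marker of that list was at 0. Each change of Pou5f1, Nanog or Sox2 at the 8-cell or blastocyst step is also given without 8-cell sample 2 where that alters the call. The counts of the gene lists further below were made with that sample included.

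The 3 genes followed 3 different courses. Pou5f1 was measured at every stage, including the oocyte, and increased 2.02-fold between the 2-cell and 8-cell stages. Nanog was dim through the 2-cell stage with signals near the middle of the array or below, and increased 22.6-fold over these by its probe set 161072_at at the 8-cell stage (6.33-fold by 161653_f_at). Sox2 had a smaller increase at the 2-cell stage and then increased 12.7-fold between the 8-cell embryo and the blastocyst.

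**Figure D1:**
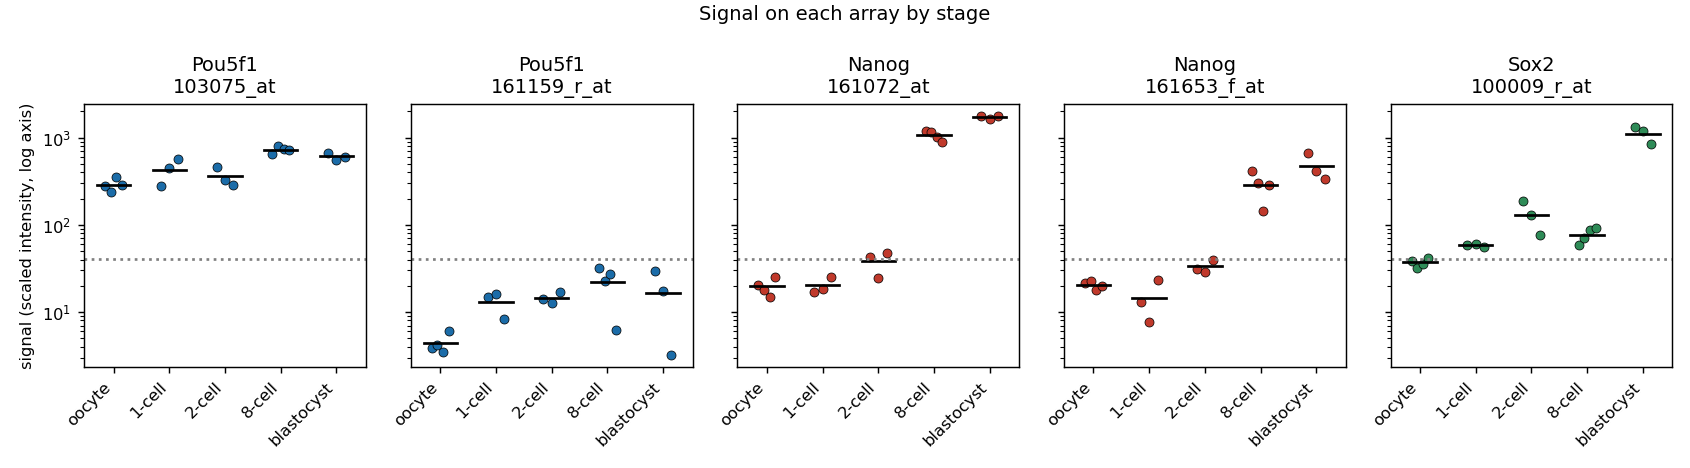
Signal (log axis) of the 5 probe sets of Pou5f1, Nanog and Sox2 on each of the 17 arrays by stage. Points are arrays, black bars are stage means and the dotted line is the signal of 41.1 used in the filter on dim probe sets. Pou5f1 103075_at lies above the line on all 17 arrays, both Nanog probe sets are far above it in 8-cell embryos and blastocysts, and Sox2 stands highest in the 3 blastocyst samples.

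Pou5f1 was read mainly through 103075_at, which was above the filter signal of 41.1 on 17 of 17 arrays. Its signals were 275.7, 241.1, 357.3 and 283.3 in oocytes, 276.8, 453.4 and 562.8 in 1-cell embryos and 459.4, 330.0 and 290.1 in 2-cell embryos. They were 651.0, 794.6, 738.9 and 716.9 in 8-cell embryos and 668.1, 560.7 and 602.1 in blastocysts. Every 8-cell sample was above every 2-cell sample, whereas the first 3 stages overlapped one another and the 8-cell samples overlapped the blastocysts. Stage means were 289 ± 48.9 in oocytes (SD, n = 4), 431 ± 144 in 1-cell embryos (n = 3), 360 ± 88.5 in 2-cell embryos (n = 3), 725 ± 59.4 in 8-cell embryos (n = 4) and 610 ± 54.2 in blastocysts (n = 3).

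The increase of Pou5f1 in 8-cell over 2-cell embryos was 1.01 ± 0.20 on the log2 scale (limma adjusted p = 0.000232). This single step amounted to 95.6% of the difference of 1.06 ± 0.20 between blastocysts and oocytes (limma adjusted p = 0.000103). Neither of the first steps passed the test: the 1-cell minus oocyte difference was 0.51 ± 0.20 (limma adjusted p = 0.0529) and the 2-cell minus 1-cell difference was -0.22 ± 0.22 (limma adjusted p = 0.436). The blastocyst minus 8-cell difference was -0.25 ± 0.20 (limma adjusted p = 0.355). In order of level the stages ran 8-cell embryo, blastocyst, 1-cell embryo, 2-cell embryo and oocyte, and the only neighbours in that order that differed were blastocyst and 1-cell embryo (0.55 ± 0.22, limma adjusted p = 0.0321), whose arrays nevertheless overlapped.

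That neighbouring difference between blastocysts and 1-cell embryos lost its call after quantile normalization (0.48, adjusted p = 0.0515) and when 1-cell sample 1, blastocyst sample 1 or blastocyst sample 3 was left out, with values between 0.26 and 0.76 over all arrays left out. The 1-cell minus oocyte difference, in contrast, turned to -0.58 (adjusted p = 0.161) with scaling on spiked-in controls, and it passed under 4 of the other settings and without oocyte sample 3, 1-cell sample 1, 2-cell sample 1 or 2-cell sample 3. Its highest value, without 1-cell sample 1, was 0.80 (adjusted p = 0.00344), and the lowest with 1 array left out was 0.30. The 1-cell samples were spread from 276.8 to 562.8, the widest relative spread of the 5 stages for this probe set.

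The other Pou5f1 probe set, 161159_r_at, was above 41.1 on 0 arrays and was not tested. Its lowest and highest signals were 3.5 and 6.0 in oocytes, 8.3 and 16.0 in 1-cell embryos, 12.6 and 17.1 in 2-cell embryos, 6.3 and 32.3 in 8-cell embryos and 3.2 and 29.2 in blastocysts. All 4 oocyte samples were below all 1-cell and 2-cell samples, as well as below all 8-cell samples, while the blastocyst samples overlapped every other stage. The ending of its name, shared with the Sox2 probe set, marks probes picked with some of the maker's selection rules dropped, and the probe sequences were not used here. The account of Pou5f1 therefore rests on 1 probe set.

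Nanog 161072_at had signals of 20.6, 18.0, 14.9 and 25.4 in oocytes, 17.1, 18.2 and 25.4 in 1-cell embryos and 42.5, 24.5 and 47.0 in 2-cell embryos. In 8-cell embryos the signals were 1177.8, 1174.4, 1028.8 and 900.8, and in blastocysts 1788.8, 1626.4 and 1762.1. The 8-cell and blastocyst samples overlapped neither each other nor any earlier sample, and 2 of the 3 2-cell samples were above all oocytes and 1-cell embryos. At the first 3 stages nearly all signals were under the array-wide median of 41.1, and with no detection calls in the table used here a low signal cannot be told apart from background. The probe set passed the filter through its later stages, 9 arrays being above it, so that its differences between early and late stages were bound to be large.

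The increase of Nanog in 8-cell over 2-cell embryos was 4.50 ± 0.19 by 161072_at (limma adjusted p = 6.08e-14), over 2-cell signals that cannot be told apart from background. Means were 1070 ± 133 in 8-cell embryos (SD, n = 4) and 38.0 ± 11.9 in 2-cell embryos (SD, n = 3). A further increase separated blastocysts, at 1726 ± 87.1 (SD, n = 3), from 8-cell embryos (0.69 ± 0.19, limma adjusted p = 0.00665). Of the whole log2 difference of 5.84 ± 0.19 between blastocysts and oocytes (limma adjusted p = 2.88e-16), 76.9% fell on the 8-cell step and 11.8% on the blastocyst step.

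An earlier and much smaller difference of Nanog 161072_at, 0.63 ± 0.21 in 2-cell over 1-cell embryos (limma adjusted p = 0.0157), was between signals close to the median and rested on the setting. It lost its call under 6 of the other settings, among them quantile normalization (0.37, adjusted p = 0.147), and without 1-cell sample 1, 1-cell sample 2, 2-cell sample 1 or 2-cell sample 3, the lowest value being 0.49 (adjusted p = 0.0819). By 161653_f_at the same difference was 0.84 ± 0.31 (limma adjusted p = 0.0332), and it lost its call without the same 4 samples in turn, with a lowest value of 0.63 (adjusted p = 0.157). The 1-cell minus oocyte difference was 0.03 ± 0.19 by 161072_at (limma adjusted p = 0.941) and -0.35 ± 0.29 by 161653_f_at (limma adjusted p = 0.396).

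The second Nanog probe set gave the same order of the late stages with more scatter. Nanog 161653_f_at had signals of 21.8, 22.9, 17.8 and 19.9 in oocytes, 13.1, 7.6 and 23.3 in 1-cell embryos and 31.5, 28.8 and 40.0 in 2-cell embryos. Its signals were 411.3, 300.2, 144.1 and 283.3 in 8-cell embryos and 672.8, 413.4 and 336.4 in blastocysts. All late samples were above all early samples, as with 161072_at, but here the blastocyst samples overlapped the 8-cell samples.

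By 161653_f_at the increase of Nanog in 8-cell over 2-cell embryos was 2.66 ± 0.29 (limma adjusted p = 1.07e-07). This probe set passed the filter only through its 8-cell and blastocyst arrays, so that this increase was bound to be large. Its 2-cell signals cannot be told apart from background. The increase in blastocysts over 8-cell embryos was 0.74 ± 0.29 (limma adjusted p = 0.0472). The blastocyst step lost its call without 8-cell sample 2 (0.80, adjusted p = 0.0544), as it did without 12 of the 17 arrays in turn, over which it ranged between 0.46 and 0.95. The lowest values, 0.46 and 0.46, came without 8-cell sample 3 (adjusted p = 0.181) and without blastocyst sample 1 (adjusted p = 0.272). The ending of this probe set's name marks probes that can also match related transcripts. Over the 17 arrays the log2 values of both Nanog probe sets correlated at 0.978, a description of arrays that share their stage.

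**Figure D2:**
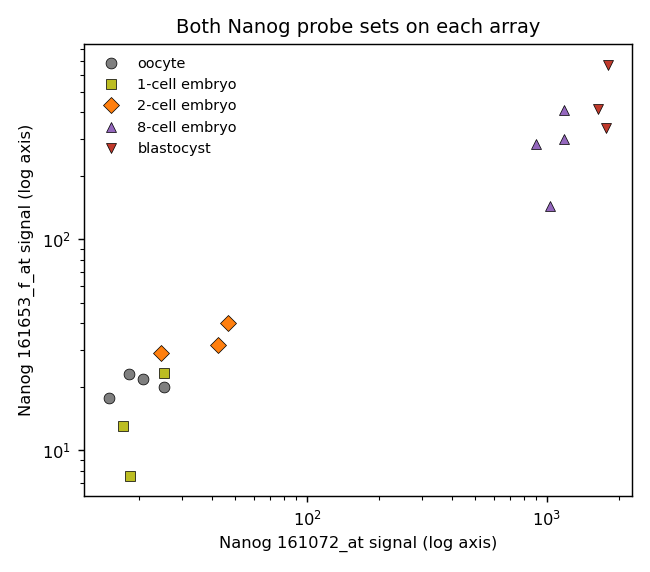
Signal of Nanog probe set 161653_f_at against that of 161072_at on the 17 arrays (both axes logarithmic), coloured by stage. The 7 arrays of 8-cell embryos and blastocysts form the upper right group, with no array between them and the 10 arrays of the earlier stages.

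Sox2 100009_r_at had signals of 38.0, 32.4, 35.8 and 42.1 in oocytes, 58.7, 60.4 and 55.6 in 1-cell embryos and 187.6, 128.7 and 75.6 in 2-cell embryos. The signals were 58.1, 71.1, 88.4 and 92.3 in 8-cell embryos and 1319.2, 1178.5 and 843.4 in blastocysts. The blastocyst samples stood apart from all others, the 1-cell samples were all above the oocytes, and the 2-cell samples overlapped the 8-cell samples. The filter signal was exceeded on 14 arrays, including 1 oocyte array. This is the only probe set of Sox2, its name has the same ending as that of Pou5f1 161159_r_at, and its probes were not checked here for matches to other transcripts.

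The increase of Sox2 in blastocysts over 8-cell embryos was 3.67 ± 0.24 on the log2 scale (limma adjusted p = 1.34e-10), the 38th largest increase of the 8067 probe sets. Means were 1114 ± 244 in blastocysts (SD, n = 3) and 77.5 ± 15.9 in 8-cell embryos (SD, n = 4). This step held 80.8% of the difference of 4.54 ± 0.24 between blastocysts and oocytes (limma adjusted p = 4.64e-13). In these whole embryos a larger share of cells of a type and more RNA per cell cannot be told apart, here and for Pou5f1 and Nanog.

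An increase of Sox2 at the 2-cell stage came before any large change of Nanog: 2-cell embryos averaged 130.6 ± 56.0 and 1-cell embryos 58.2 ± 2.43 (SD, n = 3 each), a difference of 0.96 ± 0.25 (limma adjusted p = 0.00363). Against oocytes the 2-cell difference was 1.49 ± 0.24 (limma adjusted p = 1.99e-05). In the 2-cell samples Ovgp1, at 1271.8, 714.7 and 688.1, had the same rank order as Sox2, at 187.6, 128.7 and 75.6. In 8-cell sample 2, where Ovgp1 was 6212.4, Sox2 was 71.1 and the 8-cell samples ranged from 58.1 to 92.3. Pou5f1 103075_at had the same 2-cell rank order, at 459.4, 330.0 and 290.1, and at 794.6 was the highest of its 8-cell signals in 8-cell sample 2. Nanog 161072_at did not have that 2-cell order (42.5, 24.5 and 47.0). The part of oviduct RNA in the 2-cell difference of Sox2, or in the values of Pou5f1, was not tested.

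The 8-cell minus 2-cell difference of Sox2 was -0.62 ± 0.24 (limma adjusted p = 0.0334), opposite in sign to those of Pou5f1 and Nanog. It was not stable: without 8-cell sample 2 it was -0.59 (adjusted p = 0.0635), and it also lost its call without 2-cell sample 1, 2-cell sample 2 or 8-cell sample 1, with values between -0.93 and -0.33. The 1-cell minus oocyte difference was 0.53 ± 0.24 (limma adjusted p = 0.0882), and it passed only without 2-cell sample 3 (adjusted p = 0.0428) among the 17 arrays left out in turn. It turned to -0.39 (adjusted p = 0.342) with scaling on spiked-in controls. In order of level the Sox2 stages ran blastocyst, 2-cell embryo, 8-cell embryo, 1-cell embryo and oocyte, and 8-cell and 1-cell embryos did not differ beyond their spread (0.34, limma adjusted p = 0.222).

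**Figure D3:**
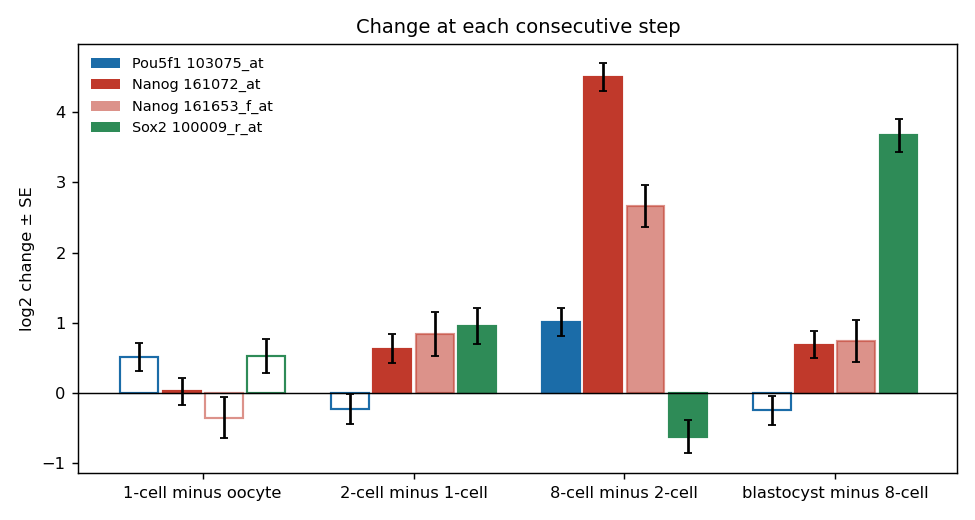
Log2 change of signal + 10.7 at each of the 4 steps from oocyte to blastocyst for the 4 tested probe sets of Pou5f1, Nanog and Sox2, with SE. Filled bars passed limma's adjusted p of 0.05 and open bars did not (the bar of 0.03 for Nanog 161072_at at the 1-cell step, too short to show, did not). The tallest bars are those of Nanog at the 8-cell step (4.50 and 2.66) and of Sox2 at the blastocyst step (3.67), while the largest of Pou5f1 is 1.01.

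Counts of calls must be read against a series in which a large share of probe sets changed at every step. At the 1-cell step 0 of the 4 tested probe sets of these genes were called by limma (Pou5f1 103075_at and Sox2 had an unadjusted p under 0.05, at 0.0198 and 0.0367), against 37.1% of all probe sets. At the 2-cell step 3 were called, both of Nanog and that of Sox2, against 47.1% of all. At the 8-cell step all 4 were called against 54% of all, and at the blastocyst step 3 against 42.6%. Between blastocysts and oocytes all 4 were called, against 64.3% of all, and with 4 probe sets from 3 genes, of which those of Nanog had passed the filter through their late stages, these counts say nothing particular to them. Among the other pairs of stages, limma called 2 for 2-cell minus oocyte (49% of all), 4 for 8-cell minus oocyte (65.7%), 3 for 8-cell minus 1-cell (66.4%), 4 for blastocyst minus 1-cell (67.6%) and 4 for blastocyst minus 2-cell embryos (59.7%).

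The pairs of genes shared their course to unequal degrees. Over the 17 arrays the log2 values of Pou5f1 103075_at correlated at 0.834 with Nanog 161072_at and at 0.455 with Sox2, and Nanog 161072_at at 0.654 with Sox2. These values describe arrays of 5 stages and carry no test. Pou5f1 and Nanog both increased at the 8-cell step, whereas the largest change of Sox2 came a step later.

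The genes whose log2 signals were most like each member over all 17 arrays were then listed. Pou5f1 103075_at was most like Rpl13a, a ribosomal protein (r = 0.900), Ipo5, a nuclear import receptor (0.894), and Clcn4, a chloride-proton exchanger (0.894). Nanog 161072_at was most like Smpdl3a, a phosphodiesterase (0.990), Cldn7, a claudin of tight junctions (0.990), and Psmg2, a proteasome assembly chaperone (0.990). For Nanog 161653_f_at the first were Vcp, an ATPase that handles ubiquitinated proteins (0.975), Eif2s2, a subunit of a translation initiation factor (0.972), and again Cldn7 (0.970). Sox2 was most like Mdk, the growth factor midkine (0.965), Cdca3, a regulator of mitotic entry (0.964), and Ezr, a linker of membrane and actin (0.964). The lists were loose: ranked over the 5 stage means instead, 1 of the first 5 genes stayed for Pou5f1 and 2 of 5 for each of the other 3 probe sets. Fits this close arise readily with 5 stages, and nothing on function is read from them.

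Proteins that bind or act with the core factors formed a list of 31 genes, of which 21 could be tested by a probe set of their own. At the 1-cell step 5 of them rose and 2 fell, where 17.3% of all probe sets rose and 19.8% fell. At the 2-cell step 9 rose and 5 fell (25.9% and 21.2% of all), at the 8-cell step 10 rose and 5 fell (25.8% and 28.3% of all), and at the blastocyst step 4 rose and 9 fell (21.8% and 20.8% of all). Their median changes at the last 3 steps were 0.35, 0.33 and -0.31, against 0.06, -0.06 and -0.09 over all probe sets tested.

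Among these partners Hdac1, a histone deacetylase found with Pou5f1 and Nanog, rose most at the 2-cell step, with 423.5 ± 68.7 in 2-cell and 10.2 ± 2.16 in 1-cell embryos (SD, n = 3 each; 4.37 ± 0.27 on the log2 scale). Klf4, a Krüppel-like factor used with Pou5f1 and Sox2 in reprogramming, also rose (440.67 ± 9.17 in 2-cell and 44.6 ± 10.1 in 1-cell embryos). At the 8-cell step Tfcp2l1, a factor of the naive state, rose by 2.84 ± 0.32 and Klf2 by 2.61 ± 0.32, alongside Nanog. The probe set of Klf2 passed the filter only through 8-cell embryos and blastocysts, so that this increase was bound to be large. Klf2 then fell in blastocysts (34.0 ± 13.9, n = 3) against 8-cell embryos (108 ± 41.8, n = 4; SD), a change of -1.36 ± 0.32. Tcf7l1, a repressor that limits Nanog in mouse embryonic stem cells, rose at the same step (2.16 ± 0.34), with Zfp281, a zinc finger partner of Nanog (1.82 ± 0.36).

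Genes described as targets of the core factors in mouse embryonic stem cells formed a list of 31, with 22 tested. At the 2-cell step 10 rose and 2 fell (25.9% and 21.2% of all probe sets), at the 8-cell step 12 rose and 4 fell (25.8% and 28.3% of all), and at the blastocyst step 8 rose and 8 fell (21.8% and 20.8% of all). Medians were 0.51, 0.96 and -0.02. Between blastocysts and oocytes 17 rose and 3 fell, against 32.2% and 32.1% of all probe sets. These counts and medians pool genes whatever the described direction of their regulation. Gata6, which is known to oppose Nanog, is among them.

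Several of these targets were high before Nanog and Sox2 were. Dppa4, a chromatin-associated protein of early embryos, had 2995 ± 571 in 2-cell and 64.3 ± 22.2 in 1-cell embryos (SD, n = 3 each; 5.35 ± 0.24). Fbxo15, an F-box protein of undifferentiated cells, rose by 4.15 ± 0.20 at the same step and fell by 2.03 in blastocysts against 8-cell embryos (3923 ± 669 in blastocysts, n = 3, and 16031 ± 2060 in 8-cell embryos, n = 4; SD). Tdgf1, a co-receptor for Nodal, rose with Nanog at the 8-cell step (2.31 ± 0.27), but like Nanog it passed the filter only through its late stages. Fgf4, whose enhancer is a textbook site of joint Pou5f1 and Sox2 binding, was looked up after its values were seen. Its changes had the same signs as those of Sox2 at the same steps, with values of 0.86 ± 0.19 at the 2-cell step, -0.67 ± 0.18 at the 8-cell step and 0.58 ± 0.18 at the blastocyst step (limma adjusted p = 0.000605, 0.00251 and 0.0104). These signs were not particular to Fgf4. Sox17 (1.33, -0.82 and 1.62) and Zfp281 (1.09, -1.02 and 1.82), which are not on the target list, had them too, all called. The Sox2 decrease at the 8-cell step was itself not stable.

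**Figure D4:**
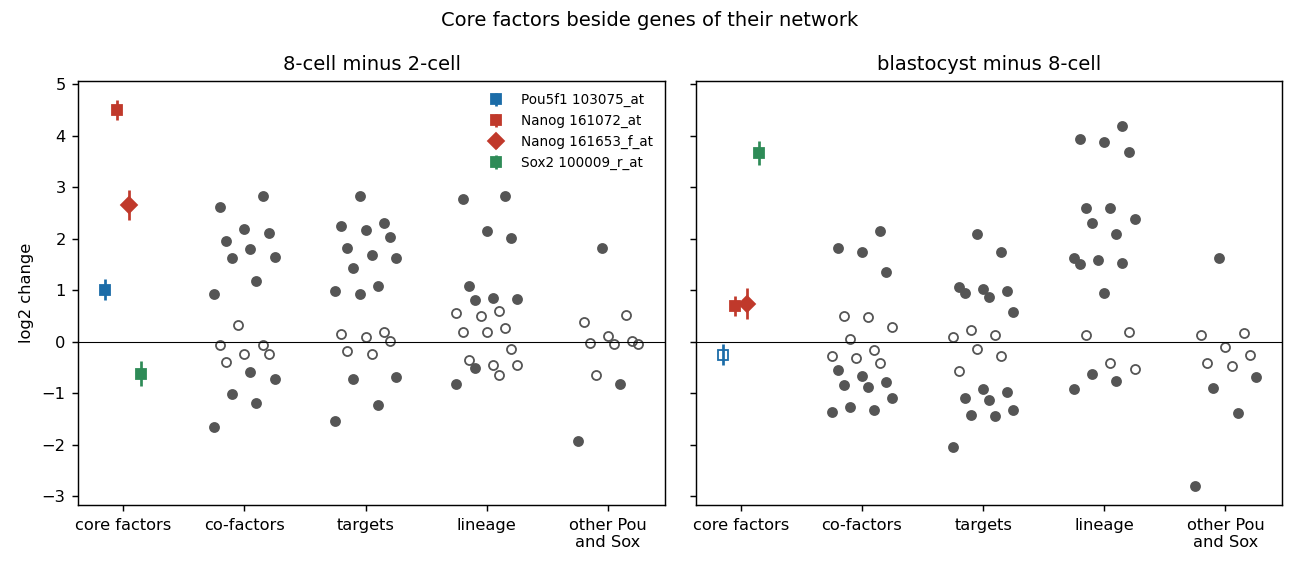
Log2 change (vertical axis) of each tested gene of the 4 lists (partners or co-factors, targets, lineage genes, other Pou and Sox genes) in 8-cell over 2-cell embryos (left) and in blastocysts over 8-cell embryos (right), with the core factors as squares and a diamond with SE. Filled points passed limma's adjusted p of 0.05 and open points did not. Nanog at the 8-cell step (4.50) and Sox2 at the blastocyst step (3.67) lie above all but a few genes of their panels.

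Lineage genes, which mark or drive trophectoderm, primitive endoderm or epiblast, were the third list, of 25 genes with 21 tested. At the 8-cell step, where Nanog increased, 8 rose and 2 fell (25.8% and 28.3% of all probe sets), with a median of 0.51. At the blastocyst step, where Sox2 increased, 14 rose and 3 fell (21.8% and 20.8% of all), with a median of 1.59. Krt18, a trophectoderm keratin, rose by 4.20 ± 0.23 and Eomes, a trophectoderm regulator, by 3.94 ± 0.26 in blastocysts over 8-cell embryos. The probe sets of Eomes, Elf5 and Sparc, all counted as risen at this step, passed the filter only through blastocysts. Their increases were therefore bound to be large. Gata6, a driver of primitive endoderm that is known to oppose Nanog, rose with it at the 8-cell step (431 ± 70.6 in 8-cell embryos, n = 4, and 52.6 ± 17.1 in 2-cell embryos, n = 3; SD). Its later change was -0.91 ± 0.20, but this turned positive (0.24, adjusted p = 0.531) when arrays were scaled on the spiked-in controls.

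Other members of the Pou and Sox families were set beside Pou5f1 and Sox2, 11 of 19 genes being testable. At the blastocyst step 1 of them rose and 4 fell, where 21.8% of all probe sets rose and 20.8% fell. The one that rose was Sox17, an endoderm factor, with 153 ± 50.6 in blastocysts (SD, n = 3) and 41.9 ± 12.0 in 8-cell embryos (SD, n = 4). Sox15, which can bind with Pou5f1 in mouse embryonic stem cells, had changes opposite in sign to those of Sox2 at the 8-cell and blastocyst steps. At the 2-cell step the sign was the same. The Sox2 decrease at the 8-cell step was itself not stable. Hdac1 (1.18 and -1.27), Klf4 (1.63 and -1.33) and Fbxo15 (1.43 and -2.03), among others, also rose and then fell, all called. A rise followed by a fall at these steps was thus not particular to Sox15. Its signals were 44.9, 61.5, 50.4 and 59.6 in oocytes, 66.1, 45.9 and 74.5 in 1-cell embryos, 73.3, 105.3 and 130.7 in 2-cell embryos, 339.7, 444.1, 375.3 and 375.7 in 8-cell embryos and 55.5, 48.3 and 35.1 in blastocysts. All 8-cell samples were above all others, and the change was 0.63 ± 0.23 in 2-cell over 1-cell embryos (limma adjusted p = 0.0286; 0.39 and not called after quantile normalization, and 0.46 and not called without 1-cell sample 2 or 2-cell sample 3), 1.82 ± 0.22 in 8-cell over 2-cell embryos (limma adjusted p = 2.89e-07) and -2.80 ± 0.22 in blastocysts over 8-cell embryos (limma adjusted p = 1.52e-09), the step at which Sox2 increased by 3.67.

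**Figure D5:**
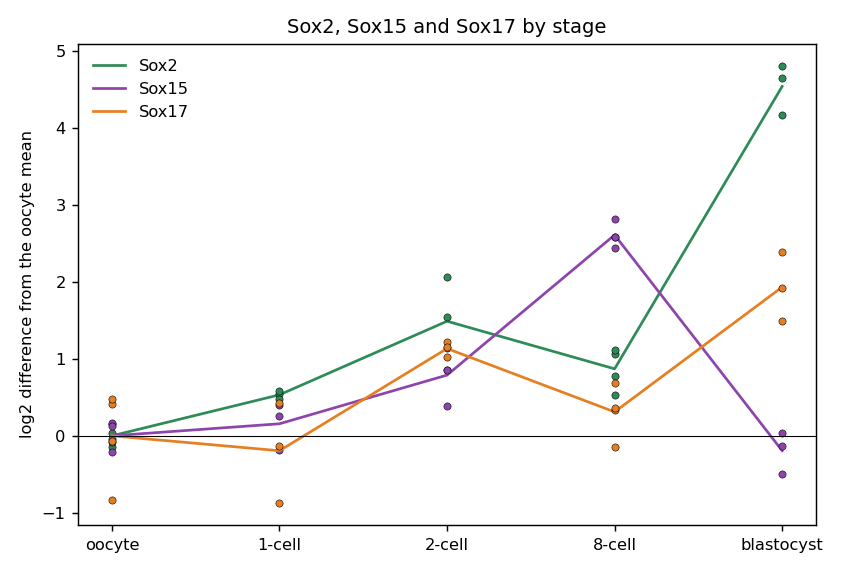
Difference of log2(signal + 10.7) from the oocyte mean of the same gene (vertical axis) for Sox2, Sox15 and Sox17 by stage. Points are arrays and lines join stage means. Sox15 peaks in the 8-cell samples and is back near its oocyte level in the blastocyst samples, where Sox2 peaks.

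All these values are shares of an array's total signal, since each array was scaled to the same mean. Another setting scaled the arrays on 9 spiked-in control probe sets. Within a stage their mean log2 signal had an SD between 0.174 (blastocysts) and 0.604 (1-cell embryos). This scaling is not read as an amount of RNA per embryo. With it the median of all probe sets moved by -0.59 at the 8-cell step and by 0.91 at the blastocyst step. The increase of Pou5f1 at the 8-cell step was then 0.37 (adjusted p = 0.391), which is 0.96 above that median, and its blastocyst minus 8-cell difference was 0.93 (adjusted p = 0.0256), 0.02 above it. Nanog at the 8-cell step (4.41 above the median) and Sox2 at the blastocyst step (3.82 above it) kept their direction and their call. Under this scaling the counts of the partner list at the blastocyst step became 11 risen and 0 fallen, and those of the targets 12 and 1, with 57.5% of all probe sets rising, and those of the other Pou and Sox genes 5 and 1, while the fall of Klf2 became -0.36 and lost its call. At the 8-cell step 4 lineage genes then rose and 5 fell, where 10.4% of all probe sets rose and 40.1% fell. The counts of these lists therefore depend on the scaling and are to be read beside the shares of all probe sets under the same scaling. The falls among partners at the blastocyst step were not kept, where 2.38% of all probe sets fell.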

How the data were processed

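The deposited table gives 1 signal intensity per probe set and array, on a linear scale, for 12488 probe sets and 17 arrays of an Affymetrix MG-U74Av2 chip. The authors' software, its version and the scaling target are not given in the sources used here. After the lowest and highest 2% of values were left out, the mean of every array was between 149.946 and 149.957, so these intensities were taken as already scaled and were not normalized again. The table used here has no detection calls, no probe values and no hybridisation dates, so no batch could be tested. The labels' protocols give 2 rounds of amplification. Precision is limited by having 3 or 4 arrays at each stage.

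Probe sets were named from the platform annotation, with the current symbol taken by Entrez ID from RefSeq's GRCm38.p6 table. Of the probe sets, 10855 had 1 symbol (10839 with an Entrez ID found in that table), 396 had several and 1193 had none. Signals were taken to log2 after adding 10.7, which is the 25th percentile over the whole table. A probe set was tested when it exceeded 41.1, the median, on at least 3 arrays (8067, after leaving out 66 controls). Stage means were fitted to all 17 arrays with limma 3.58.1 in R 4.3.3 (empirical Bayes with a trend, 12 residual degrees of freedom), contrasted in 10 stage pairs and adjusted by Benjamini-Hochberg over all probe sets within a comparison at 0.05. The fit was tested on simulated data. Changes were computed per probe set, and a listed gene was read from its brightest probe set with 1 symbol. Where a listed gene passed the filter only through the stages at which it was high, its change from its dim stages was bound to be large.

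The members and lists were chosen with earlier results of these data known, and the lists share genes. Listed genes are named as examples, first those with the largest change among the called in the comparison described; Fgf4 was added after its values were seen. The genes most like a member are the first 5 by Pearson's r over the 17 arrays. Same-numbered samples of different stages did not deviate together (31 pairs, r between -0.084 and 0.125, 2 over 0.1), so the numbers do not pair samples. Motifs were searched on both strands in 250 bases before each start.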

Additional observations from a re-analysis of the deposited data

How the results depend on the processing

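Of 1120 values of the 40 member changes under other settings, 1039 kept direction and side of the threshold, 58 lost the call, 12 gained it and 11 changed sign; 20 of the 40 changes had no such value. Where a value moved the call, the cause was not tested. Pou5f1 1-cell minus oocyte passed with quantile normalization (0.58), median centring (0.57), a stricter filter (0.51) and array weights (0.50), and was 0.30 to 0.80 with 1 array left out. Pou5f1 blastocyst minus 1-cell failed with quantile normalization (0.48), median centring (0.46) and a fit on only those stages (0.55), and was 0.26 to 0.76 with 1 array left out. With scaling on the spiked-in controls Pou5f1 was 0.37 for 8-cell minus 2-cell, 0.37 for 8-cell minus 1-cell and 0.71 for blastocyst minus oocyte, none called, and turned for 1-cell minus oocyte (-0.58), 2-cell minus oocyte (-0.59), blastocyst minus 8-cell (0.93) and 8-cell minus oocyte (-0.21).

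Nanog 161072_at 2-cell minus 1-cell failed with quantile normalization (0.37), median centring (0.35), spike scaling (0.73), a larger offset (0.36), array weights (0.39) and only those stages (0.63), and was 0.49 to 0.85 with 1 array left out. Its 2-cell minus oocyte value failed at 0.38, 0.44 and 0.020 in the first 3 of these, and was 0.52 to 0.88 with 1 array left out. Nanog 161653_f_at 2-cell minus 1-cell failed with quantile normalization (0.59), median centring (0.56), spike scaling (0.90), a larger offset (0.43) and no filter (0.84), and was 0.63 to 1.07 with 1 array left out. Its blastocyst minus 8-cell value failed with quantile normalization (0.66), an offset of 1 (0.77), no filter (0.74), no trend (0.74) and only those stages (0.74), and was 0.46 to 0.95 with 1 array left out. With spike scaling its 1-cell minus oocyte value passed (-1.06) and its 2-cell minus oocyte value turned (-0.16). Nanog 161072_at 1-cell minus oocyte turned to -0.71 with spike scaling and was -0.091 to 0.11 with 1 array left out, turning without oocyte sample 3 (-0.054) or 1-cell sample 3 (-0.091).

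Sox2 1-cell minus oocyte passed with array weights (0.54) and only those stages (0.53), and was 0.48 to 0.58 with 1 array left out. Sox2 8-cell minus 2-cell failed with quantile normalization (-0.54), median centring (-0.48) and only those stages (-0.62), and was -0.93 to -0.33 with 1 array left out. With spike scaling Sox2 2-cell minus oocyte was 0.74 and not called, and 1-cell minus oocyte (-0.39), 8-cell minus 1-cell (-0.023) and 8-cell minus oocyte (-0.41) turned, as did Gata6 blastocyst minus 8-cell (0.24). That scaling called 4664 probe sets at the 1-cell step, against 2993. With the replicate number as a block (replicate block), Nanog 161653_f_at blastocyst minus 8-cell was 0.75 (adjusted p = 0.0582), and no other member call changed; the numbers were not found to pair samples. Without detection calls or probe values, signals near 41.1 cannot be ranked against background.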
